A study of Arabidopsis thaliana with 8 samples.

Results

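The regions described here are the R-loop peaks of *ndx1-4* seedlings that lay outside protein-coding genes and had no counterpart in wild-type Col-0. They were selected on the deposited peak lists by 2 conditions: a peak of the *ndx1-4* list on chromosomes 1 to 5 shared no base with any Col-0 peak, and it shared no base with the body of any protein-coding gene. Of 13549 nuclear *ndx1-4* peaks, 1008 (7.44%) shared no base with a Col-0 peak, and 422 of these lay outside protein-coding genes. The 422 peaks covered 101320 bases and were 8.54% (95% interval 7.79% to 9.35%) of the 4942 *ndx1-4* peaks outside protein-coding genes. Both conditions used the lists themselves, so the absence of a Col-0 partner and of a coding gene is the definition of the set and not a finding.

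The libraries came from 10-day-old *Arabidopsis thaliana* seedlings of the Col-0 wild type and of *ndx1-4*, a mutant carrying a T-DNA insertion in *NDX*, the gene for NODULIN HOMEOBOX. The 4 libraries of a genotype were 1 input library, 2 immunoprecipitation (IP) libraries made with the S9.6 antibody against DNA:RNA hybrids, and 1 further IP library from material digested with RNase H, which removes the RNA of such hybrids. A single peak list was analysed for each genotype, in which every peak had its position and a score. What 1 unit of the score stands for and how the libraries entered the calls are not given in the sources used here, so scores were ranked within a list and never set against the other list.

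An R-loop forms when RNA pairs with one strand of the DNA duplex and displaces the other strand. R-loops are widespread in plant genomes and are known at promoters, transcript ends, noncoding transcription units and transposons. NDX is a plant homeodomain protein known for binding single-stranded DNA within the R-loop at the end of the flowering gene *FLC*, where the antisense transcripts named *COOLAIR* begin. Sequence outside protein-coding genes in *Arabidopsis* holds transposons and their remnants, which are densest in the heterochromatin around the centromeres, as well as noncoding RNA genes and the promoters and terminators of coding genes. In the annotation used here many transposon-derived genes are listed as pseudogenes.

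Each peak was placed in the first matching of 4 classes: overlapping a pseudogene, overlapping a noncoding RNA gene, within 1 kb of a protein-coding gene (flank), or intergenic. To show what such sequence looks like, the central 200 bases of the highest-scoring peak of each class and place are printed, read 5′ to 3′ from the RefSeq TAIR10.1 reference. Capitals mark the purine words GAAGAA and GAGAGA and their complements TTCTTC and TCTCTC, which were searched on both strands.
pericentromeric pseudogene, chr5:12990741-12990940, plus strand: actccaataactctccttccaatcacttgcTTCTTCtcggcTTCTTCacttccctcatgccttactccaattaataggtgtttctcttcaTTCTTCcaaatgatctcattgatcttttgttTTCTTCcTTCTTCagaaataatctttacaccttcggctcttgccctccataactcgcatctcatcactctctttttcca
pseudogene in an arm, chr3:5815101-5815300, plus strand: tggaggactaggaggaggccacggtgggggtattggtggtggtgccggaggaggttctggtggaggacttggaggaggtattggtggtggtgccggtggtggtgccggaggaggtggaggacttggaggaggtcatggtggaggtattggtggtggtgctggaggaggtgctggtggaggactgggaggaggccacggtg
lncRNA gene, chr1:17964821-17965020, plus strand: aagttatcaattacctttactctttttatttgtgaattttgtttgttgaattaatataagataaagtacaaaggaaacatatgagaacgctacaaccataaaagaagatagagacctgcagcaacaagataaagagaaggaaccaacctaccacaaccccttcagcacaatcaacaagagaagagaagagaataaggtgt
other noncoding RNA gene, chr3:2364131-2364330, plus strand: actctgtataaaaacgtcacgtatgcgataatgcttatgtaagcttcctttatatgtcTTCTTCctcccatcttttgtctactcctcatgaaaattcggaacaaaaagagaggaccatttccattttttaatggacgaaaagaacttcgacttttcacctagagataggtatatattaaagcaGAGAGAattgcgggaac
upstream flank, chr1:18599251-18599450, plus strand: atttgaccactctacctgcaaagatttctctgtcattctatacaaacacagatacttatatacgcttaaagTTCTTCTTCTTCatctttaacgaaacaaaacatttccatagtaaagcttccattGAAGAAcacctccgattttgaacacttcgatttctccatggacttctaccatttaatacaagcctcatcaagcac
downstream flank, chr4:5981061-5981260, plus strand: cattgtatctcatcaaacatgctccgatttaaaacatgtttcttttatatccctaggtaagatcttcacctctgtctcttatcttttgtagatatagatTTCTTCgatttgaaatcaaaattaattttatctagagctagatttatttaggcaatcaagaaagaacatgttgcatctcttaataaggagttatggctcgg
intergenic, arm, chr3:17111061-17111260, plus strand: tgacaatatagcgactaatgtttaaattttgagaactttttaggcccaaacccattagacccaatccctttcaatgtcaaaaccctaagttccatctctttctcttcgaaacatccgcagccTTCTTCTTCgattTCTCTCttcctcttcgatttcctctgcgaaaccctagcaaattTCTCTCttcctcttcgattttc
intergenic, pericentromere, chr2:4040721-4040920, plus strand: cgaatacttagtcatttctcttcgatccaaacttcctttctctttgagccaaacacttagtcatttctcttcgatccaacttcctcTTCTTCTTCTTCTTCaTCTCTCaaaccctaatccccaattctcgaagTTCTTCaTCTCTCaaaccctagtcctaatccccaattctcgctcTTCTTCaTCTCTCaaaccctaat
The stretch from the pericentromeric intergenic peak has 45 bases in capitals and only 11 G among its 200 bases, against 70 C. The stretch within the arm pseudogene AT3G17050 has no capitals, but 108 of its 200 bases are G, in short tracts that follow each other along the plus strand. The lncRNA stretch also has none of these words.

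The peaks without a partner were short and low in score. Their lengths ran from 200 to 640 bases with a median of 220 bases, and 201 of 422 (47.6%, 42.9% to 52.4%) had the shortest length in the lists, 200 bases. The 4520 *ndx1-4* peaks outside coding genes that did have a Col-0 partner had a median of 360 bases, and 7.06% of them were 200 bases long. A longer peak shares a base with a Col-0 peak more readily, so length is tied to the definition and is given as a description. Scores of the 422 peaks ran from 53 to 312 with quartiles of 65, 72 and 80, and their median stood at 16.5% of the *ndx1-4* list ranked from the lowest score. The peaks with a partner had a median score of 97, at 54.4% of the same list. In all, 253 of 422 (95% interval 55.2% to 64.5%) lay in the lowest 20% of the list, and 7 (1.66%, 0.806% to 3.38%) in the highest 10%.

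**Figure D1:**
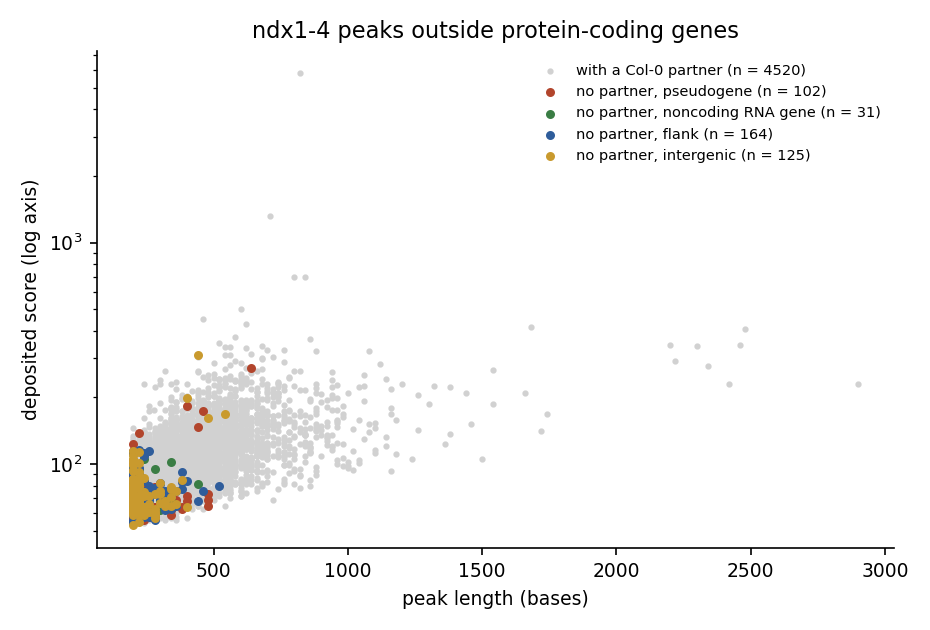
Each point is an *ndx1-4* peak outside protein-coding genes, with its length in bases and its deposited score on a log axis; grey points have a Col-0 partner and coloured points have none, by class. The coloured points gather at the short, low-scoring corner, and those with a score of at least 161 are at least 400 bases long.

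The share of peaks without a partner was lower in each higher 20% of the list by score. In the lowest 20% of the list, 253 of 1041 peaks outside coding genes (24.3%, 21.8% to 27.0%) had no partner. The share was 11.7% (9.85% to 14.0%) in the next 20%, 3.38% in the middle 20%, 1.65% in the 20% above that, and 0.920% (0.485% to 1.74%), or 9 of 978, in the highest 20%. By length it was 38.7% (34.6% to 42.9%) of the 520 peaks of 200 bases and 0.780% (0.456% to 1.33%) of the 1667 peaks over 400 bases. A short peak avoids sharing a base more readily, so the share by length is not independent of the definition. A list called from a deeper library holds more weak peaks, and with a single list per genotype and unknown depth this cannot be told apart from genotype.

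**Figure D2:**
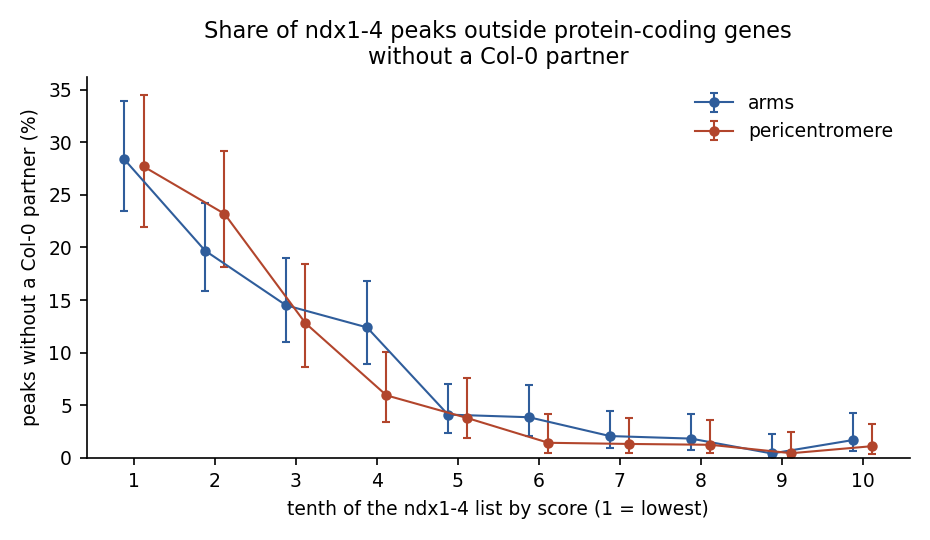
The share of *ndx1-4* peaks outside protein-coding genes without a Col-0 partner (percent) is drawn for each successive 10% of the list by score, separately for chromosome arms and pericentromere, with 95% Wilson intervals as bars. It fell from 28.4% in arms and 27.7% in the pericentromere in the lowest 10% to 1.69% and 1.11% in the highest, where it stood above the 0.413% and 0.439% of the 10% before, with overlapping intervals.

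The same computation in the other direction gave 601 of 5089 Col-0 peaks outside coding genes (11.8%, 11% to 12.7%) without an *ndx1-4* partner. These Col-0-only peaks had a median length of 220 bases, and 51.6% of them lay in the lowest 20% of their own list, while 9.65% (7.54% to 12.3%) lay in its highest 10%. In each list, then, unpartnered peaks were mostly weak ones, and a larger share of the Col-0-only peaks ranked high in their own list. Inside protein-coding genes 586 of 8607 *ndx1-4* peaks (6.81%, 6.30% to 7.36%) had no partner.

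By class, 164 of the 422 peaks (38.9%, 34.3% to 43.6%) were flank peaks, 125 (29.6%, 25.5% to 34.1%) intergenic, 102 (24.2%, 20.3% to 28.5%) overlapped a pseudogene and 31 (7.35%, 5.22% to 10.2%) a noncoding RNA gene. Peaks with a partner were 33.3% flank, 36.3% (35.0% to 37.8%) intergenic, 22.0% pseudogene and 8.34% noncoding RNA gene. The difference in the intergenic share, unpartnered minus partnered, was -6.73 percentage points (interval -11.1 to -2.00), and that in the flank share 5.59 points (0.850 to 10.5). The flank difference did not hold at matched length: among peaks of up to 300 bases 39.6% (34.8% to 44.7%) of unpartnered and 38.4% (36.1% to 40.7%) of partnered peaks were flank peaks, and among peaks of exactly 200 bases 38.3% (31.9% to 45.2%) and 44.8% (39.5% to 50.3%). It turned to -0.380 points in the higher-scoring 50% of the lists, and its interval included 0 with gene bodies extended by 250 bases (-2.68 to 7.04). The intergenic difference was smaller at matched length, and the intervals overlapped. Among peaks of up to 300 bases 29.9% (25.5% to 34.8%) of unpartnered and 34.5% (32.3% to 36.8%) of partnered peaks were intergenic. At exactly 200 bases the shares were 31.3% (25.3% to 38.1%) and 33.5% (28.6% to 38.9%). The interval of this difference included 0 in the higher-scoring 50% (-17.5 to 10.1) and with extended gene bodies (-10.7 to 0.00449). For pseudogenes the difference was 2.14 points with an interval from -1.90 to 6.6, which includes 0. The bases outside protein-coding genes were 41.5% flank, 36.7% intergenic, 18.9% pseudogene and 2.85% noncoding RNA gene. A peak is counted in a class when a single base touches it, so narrow features gain: by the peak midpoint the noncoding RNA share was 5.69% and the pseudogene share 21.6%.

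The pericentromere was taken as the 100 kb windows in which less than 40% of the bases belonged to coding genes, as a running mean of 5 windows. It held 159 of the 422 peaks (37.7%, 33.2% to 42.4%), against 44.2% (42.7% to 45.6%) of the peaks with a partner and 39.1% of the bases outside coding genes. The difference, unpartnered minus partnered, was -6.50 points (-11.2 to -1.57). The direction depended on score and length: in the lowest 20% of the list, 41.1% (35.2% to 47.3%) of unpartnered and 39.0% (35.6% to 42.4%) of partnered peaks were pericentromeric. In the next 20% the shares were 31.5% (23.6% to 40.7%) and 41.6% (38.3% to 45.0%), and in the upper 60% they were 34.5% (23.6% to 47.3%) and 46.3% (44.5% to 48.2%). Among peaks of exactly 200 bases the order was the other way, with 40.3% (33.8% to 47.2%) of unpartnered and 31% (26.2% to 36.3%) of partnered peaks in the pericentromere. Col-0-only peaks in the upper 60% of their own list stood at 62.9% (54.8% to 70.4%), an interval that did not overlap that of the unpartnered *ndx1-4* peaks.

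The classes were spread differently over the chromosomes. Pericentromeric sequence held 73 of the 102 pseudogene peaks (71.6%) and 65 of the 125 intergenic peaks (52.0%), but 18 of 164 flank peaks (11%) and 3 of 31 noncoding RNA peaks (9.68%). Among peaks with a partner these shares were 74.3%, 57.3%, 15.7% and 21.2%. Chromosome 1 carried 112 of the unpartnered peaks, chromosome 2 carried 75, chromosome 3 carried 87, chromosome 4 carried 69 and chromosome 5 carried 79. Relative to all *ndx1-4* peaks outside coding genes on the same chromosome, the unpartnered share ran from 7.66% (6.19% to 9.45%) on chromosome 5 to 9.61% (8.04% to 11.4%) on chromosome 1, with overlapping intervals.

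**Figure D3:**
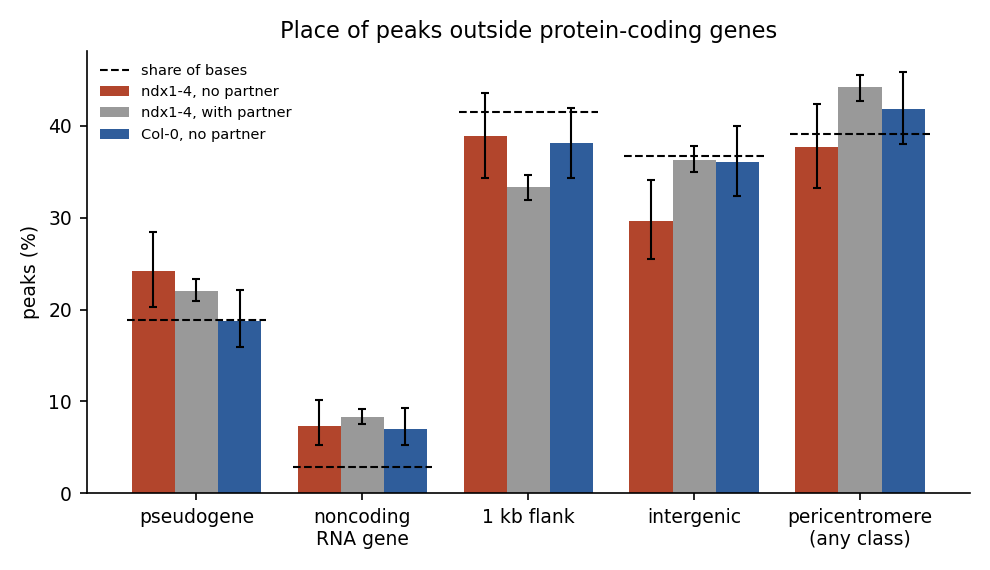
Bars give the percent of peaks outside protein-coding genes in each class, and in the pericentromere, for *ndx1-4* peaks without a partner, *ndx1-4* peaks with a partner and Col-0 peaks without a partner, with 95% Wilson intervals; dashed lines give the share of bases. The intergenic bar of the unpartnered *ndx1-4* peaks, 29.6%, stands below the 36.3% of the partnered peaks, and their pericentromere bar, 37.7%, below 44.2%.

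Most of the 422 peaks did not lie next to a Col-0 peak. The gap to the nearest Col-0 peak had a median of 2100 bases (quartiles 880 and 4575), and 97 peaks (23.0%) were more than 5000 bases away. This is close to the spacing within the *ndx1-4* list. There the median gap to the nearest other peak was 2210 bases for the 422 peaks and 2390 bases for partnered peaks. Still, 39 (9.24%, 6.83% to 12.4%) had a Col-0 peak within 200 bases. For 32 of those 39 the neighbouring Col-0 peak was itself overlapped by another *ndx1-4* peak, so the unpartnered peak sat beside a site called in both genotypes. For the other 7 the neighbouring Col-0 peak had no partner either, and the 2 genotypes had adjacent calls. Among Col-0-only peaks 5.16% (3.66% to 7.23%) had an *ndx1-4* peak within 200 bases.

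**Figure D4:**
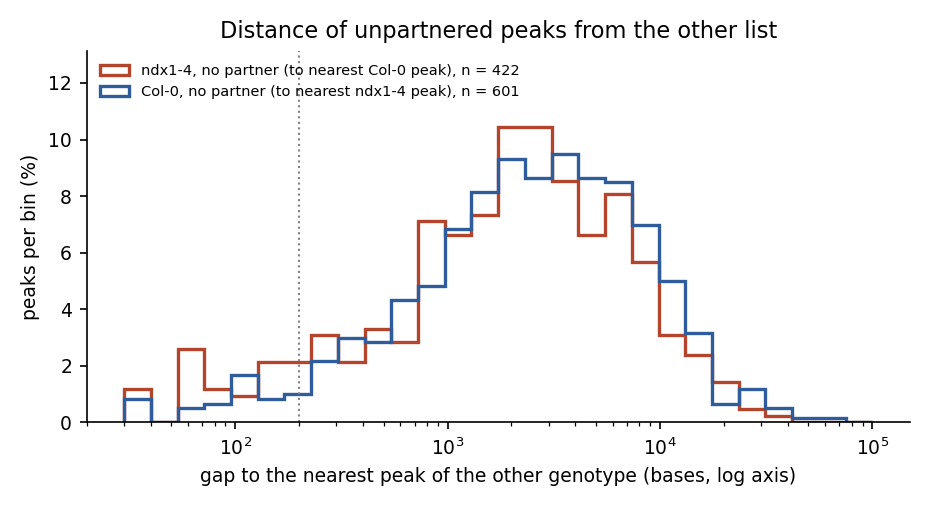
The histogram gives, in percent of peaks per bin, the gap in bases (log axis) from unpartnered *ndx1-4* peaks to the nearest Col-0 peak and from unpartnered Col-0 peaks to the nearest *ndx1-4* peak; the dotted line stands at 200 bases. Both curves peak at a few kilobases (medians 2100 and 2500 bases), and the *ndx1-4* curve has more peaks left of the dotted line, 9.24% against 5.16%.

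At the edge of the definition, the smallest gap to a Col-0 peak was 40 bases, reached by 5 peaks. Among them were chr3:5964141-5964360 (score 71), chr3:12707121-12707320 (score 63) and chr3:17140461-17140660 (score 81), the last downstream of *TIM9*, which encodes a mitochondrial import protein. Just outside, chr1:10128721-10128960 (score 63) shared 40 bases with a Col-0 peak, chr4:7691821-7692020 (score 58) shared 60 and chr1:12273761-12273960 (score 60) shared 100. The peak closest to a coding gene, chr1:1444641-1444980, lay 2 bases before AT1G05035 and overlapped the lncRNA gene AT1G04313. The next, chr4:549421-549800, lay 7 bases from *ATSTE24*, which encodes a protease of prenylated proteins, and chr1:24211421-24211660 lay 17 bases from AT1G65180. Unpartnered peaks that just entered a coding gene shared 3 bases with *ICR1*, 4 with AT1G14330 and 7 with AT5G04750.

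Only 9 of the 422 peaks reached the highest 20% of the *ndx1-4* list. The first 5 were chosen as the highest scores, and the other 4 were added after their values were seen. All 9 were pseudogene or intergenic peaks, and none was a flank or noncoding RNA peak. Of all 978 *ndx1-4* peaks outside coding genes in that 20%, 213 were pseudogene, 410 intergenic, 271 flank and 84 noncoding RNA peaks. A count of 0 allows an unpartnered share of up to 1.40% for flank and 4.37% for noncoding RNA peaks. Neither separates from the 0.920% over all 978.

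The highest score, 312 (99.6% of the list), belonged to chr2:4040601-4041040, an intergenic pericentromeric peak of 440 bases with the nearest Col-0 peak 21120 bases away. It ended 123 bases before the start of the pseudogene AT2G10490. The second, with a score of 273, was also the longest unpartnered peak: chr5:12990521-12991160 spanned 640 bases across the start of the minus-strand pseudogene AT5G34833 (chr5:12985525-12991092), 19040 bases from a Col-0 peak. Both therefore stood far from any wild-type call.

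The intergenic arm peak chr3:17110961-17111360 had a score of 198 and ended 68 bases before the start of the pseudogene AT3G46487, which carried another unpartnered peak, chr3:17113261-17113480 (score 80). The peak chr3:5815001-5815400, with a score of 183, lay inside the pseudogene AT3G17050, had a GC content of 63.2%, the highest of all 422, and was 940 bases from a Col-0 peak. The peak chr4:5570201-5570660, with a score of 173, covered the end of the pseudogene AT4G08710 and was only 60 bases from a Col-0 peak. These 3 were nearer to wild-type peaks than the top 2.

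Of the remaining 4, chr4:9956621-9957160 (score 169, 540 bases) lay 960 bases before the start of AT4G17914. The peak chr1:18849741-18850220 (score 161) lay 86 bases before the start of AT1G50850. The peak chr2:3819481-3819920 (score 147) covered the start of AT2G10070, and chr1:23931081-23931300 (score 138) lay within AT1G64410. RefSeq notes AT4G17914 as a pseudogene of a ubiquitin-specific protease, an enzyme class that removes ubiquitin from proteins.

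Thus 6 of these 9 peaks covered the start of a pseudogene or lay within 1 kb before it (66.7%, 35.4% to 87.9%). Among the 218 lower-scoring unpartnered peaks of the same 2 classes the share was 17.9% (13.4% to 23.5%), and among the 614 partnered pseudogene and intergenic peaks of the highest 20% it was 17.4% (14.6% to 20.6%). RefSeq marks the ends of many pseudogene models as partial, so an annotated start need not be a transcription start, and this grouping was made after the 9 positions had been seen, so it is given as a description.

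The 4 intergenic peaks among the 9 also shared a word. Each contained AAACCCTA on one strand or the other, a word related to the plant telomere repeat that is known as the telo-box in promoters of genes of the translation machinery. It occurred 5 times in chr2:4040601-4041040, 3 times each in chr3:17110961-17111360 and chr1:18849741-18850220, and 1 time in chr4:9956621-9957160, and it was absent from the other 5 peaks. In the central 200 bases the word was present in 23 of the 422 peaks (5.45%, 3.66% to 8.05%), in 3.61% of partnered peaks and in 2.53% of all 200-base tiles outside coding genes. Among intergenic peaks alone the shares were 10.4% (6.18% to 17.0%) of 125 unpartnered, 5.11% (4.15% to 6.29%) of partnered and 4.15% (2.20% to 7.69%) of Col-0-only peaks. The word was searched after the sequences of the 4 peaks had been read, and without the highest 20% by score, which holds them, the intergenic shares were 7.44% (3.96% to 13.5%), 5.66% (4.50% to 7.09%) and 3.76% (1.83% to 7.56%), with overlapping intervals.

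Of 36 pairs among the 9 peaks, 0 shared a 31-base word and 3 shared any 15-base word. The closest pair, chr2:4040601-4041040 and chr1:18849741-18850220, shared 27 such words, and chr3:17110961-17111360 shared 4 with each. The stretches of 160 bases with most shared sequence are printed below with the 15-base words common to both peaks in capitals, the second on the minus strand.
chr2:4040690-4040849, plus strand: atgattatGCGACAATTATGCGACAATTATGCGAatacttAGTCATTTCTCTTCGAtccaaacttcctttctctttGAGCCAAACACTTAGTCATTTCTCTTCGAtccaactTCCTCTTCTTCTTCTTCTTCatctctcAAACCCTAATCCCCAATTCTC
chr1:18849852-18850011, minus strand: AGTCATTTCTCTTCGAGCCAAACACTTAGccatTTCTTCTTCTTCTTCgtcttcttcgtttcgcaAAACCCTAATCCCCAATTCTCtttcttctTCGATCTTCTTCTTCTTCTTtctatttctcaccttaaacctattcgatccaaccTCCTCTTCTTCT
The capitals cover 112 and 97 bases. The shared parts include pyrimidine runs with TTCTTC and the block AAACCCTAATCCCCAATTCTC. The 3 peaks that shared words lay on different chromosomes, 123, 86 and 68 bases before a pseudogene start. In the 3 peaks chr3:17110961-17111360, chr1:18849741-18850220 and chr4:9956621-9957160, 74.9%, 71.1% and 61.2% of 31-base words occurred more than once on the nuclear chromosomes. The value was 16.6% for chr2:4040601-4041040. A further copy within the same peak counts here too.

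The 102 pseudogene peaks fell on 95 pseudogenes, of which 83 were annotated as pseudogene and 12 as transcribed pseudogene. RefSeq described 82 of the 95 only as an uncharacterized protein, and no description held a transposon word, so transposon families could not be assigned. The median length of these pseudogenes was 2946 bases, against 1686 bases for all 4843 on the chromosomes. Any peak touches a longer pseudogene more readily, so nothing is read from this difference. Most peaks, 73 of 102, lay inside the pseudogene without covering either end, while 21 (20.6%, 13.9% to 29.4%) covered the start and 8 (7.84%, 4.03% to 14.7%) the end. Partnered pseudogene peaks covered the start in 17.9% and the end in 12.6% of cases, and the intervals overlapped. Of the 95 pseudogenes, 66 (69.5%, 59.6% to 77.8%) had no Col-0 peak anywhere in the annotated gene, against 80.9% of all 4843 pseudogenes, which are shorter, and 29 had a Col-0 peak elsewhere in it.

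Of these pseudogenes 7 carried more than 1 unpartnered peak. AT5G29708, a pericentromeric pseudogene of 2946 bases (chr5:11631511-11634456), carried 3, with scores of 77, 73 and 65, and their gaps to Col-0 peaks were 880, 60 and 400 bases. In AT5G35935 (chr5:14083388-14089891) the 2 unpartnered peaks had scores of 63 and 57 and were 17440 and 14240 bases from any Col-0 peak. AT2G15070 carried 2 with scores of 82 and 83 and had no Col-0 peak, while AT1G21945, AT1G43387, AT3G59720 and AT4G08108 carried 2 each and had 1 or 2 Col-0 peaks of their own. In AT3G59720 all 31-base words of both peaks (100%) occurred more than once on the nuclear chromosomes. Reads at these could have come from another copy. All 7 therefore carried only low to middling scores, from 57 to 83.

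Beyond pseudogenes themselves, 37 of the 125 intergenic peaks (29.6%) lay within 1 kb of one, 24 (19.2%, 13.3% to 27.0%) before a start and 13 (10.4%, 6.18% to 17.0%) past an end. Among partnered intergenic peaks the order was the other way, with 15% (13.3% to 16.8%) before a start and 18.6% (16.8% to 20.5%) past an end, and Col-0-only peaks had 11.5% and 19.8%. The intervals for the share past an end overlapped by a narrow margin, and those for the share before a start overlapped as well. Intergenic peaks in the pericentromere lay a median of 1236 bases from a pseudogene and 10378 bases from a protein-coding gene, and those in arms 24088 and 1766 bases.

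Unpartnered peaks fell in 320 windows of 100 kb, and neighbours were a median of 155120 bases apart. Yet 8 neighbouring pairs lay within 1 kb, and 17 windows held 3 or more peaks. The spread was not compared with an even one or with that of partnered peaks. The fullest window, chr4:4500001-4600000, held 5 peaks, all intergenic and pericentromeric, with scores of 59 to 85. Another 6 windows held 4 each. One of them, chr3:17100001-17200000, held the high-scoring intergenic peak beside AT3G46487, the peak inside that pseudogene, and 2 flank peaks beside AT3G46480 and *TIM9*.

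The noncoding RNA class held 31 peaks over 36 genes. By type, 20 of the peaks overlapped lncRNA genes, which encode long transcripts without a known protein, 9 overlapped transcribed regions annotated as miscellaneous RNA, 4 overlapped other ncRNA genes and 1 overlapped snoRNA genes, some peaks touching more than 1 type. Of the 32 *ndx1-4* peaks outside coding genes that lay over a miRNA gene, 0 were unpartnered, which allows a share of up to 9.38% and so does not separate from the 8.54% of all peaks outside coding genes. No *ndx1-4* peak outside coding genes lay over a tRNA, rRNA or snRNA gene. The snoRNA peak, chr3:8979241-8979680 (score 81, 1880 bases from a Col-0 peak), spanned the snoRNA genes AT3G24614 and AT3G24615 and overlapped the lncRNA gene AT3G04775. Small nucleolar RNAs commonly guide chemical modification of ribosomal RNA. The highest-scoring lncRNA peak was chr1:17964801-17965040 (score 105, 63.2% of the list) over AT1G07497. The highest of the other types was chr3:2364121-2364340 (score 95) over AT3G00250, 960 bases upstream of *AIR12*, an auxin-responsive gene. Of the 36 genes, 35 had no Col-0 peak in the annotated gene, against 86.2% of all 5612 noncoding RNA genes, and nothing is read from this count because the genes were reached through peaks that overlap no Col-0 peak. Their median length was 476 bases.

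Among the 164 flank peaks, 84 (51.2%) lay within 1 kb upstream of a gene start only, 45 (27.4%) within 1 kb downstream of a gene end only and 35 (21.3%) in both positions for different genes. Partnered flank peaks were 49.5% upstream, 33.4% downstream and 17.1% both. Counted over all classes, 141 of 422 unpartnered peaks (33.4%, 29.1% to 38.0%) lay within 1 kb upstream of a gene start, against 25.4% (24.2% to 26.7%) of partnered peaks and 29.8% (26.3% to 33.6%) of Col-0-only peaks. Within 200 bases upstream the shares were 12.3% (9.52% to 15.8%), 6.90% (6.2% to 7.68%) and 9.15% (7.10% to 11.7%). Downstream no such gap was seen: 22.5% and 20.8% lay within 1 kb of a gene end, and 5.92% and 6.13% within 200 bases.

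Length enters these comparisons, because a longer peak at the same place can reach the gene body and is then left out by the definition. For the 1 kb distance the shares were 34.0% (29.3% to 38.9%) and 29.9% (27.8% to 32.1%) among peaks of up to 300 bases, and the direction turned among peaks of exactly 200 bases, with 32.8% (26.7% to 39.6%) of unpartnered and 33.9% (28.9% to 39.2%) of partnered peaks. For the 200-base distance, among peaks of up to 300 bases 12.7% (9.66% to 16.4%) of unpartnered and 8.54% (7.32% to 9.95%) of partnered peaks lay within 200 bases upstream of a gene start, so the difference was smaller and the intervals overlapped. In the lowest 20% by score the shares were 11.1% (7.77% to 15.5%) and 8.25% (6.52% to 10.4%), and in the next 20% they were 15.3% (9.79% to 23.2%) and 6.95% (5.42% to 8.89%). The direction at 200 bases was the same in each of these groups.

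The highest-scoring upstream peak was chr1:18599241-18599460 (score 116, 72.7% of the list), 671 bases before *ALATS*, which encodes alanyl-tRNA synthetase. The highest-scoring downstream peak was chr4:5981041-5981280 (score 109), 934 bases past AT4G09440 and 300 bases from a Col-0 peak. The longest flank peak, chr3:17102001-17102520, spanned 520 bases with a score of 80 and lay 652 bases upstream of AT3G46480. The nearest gene of 49 of the 164 flank peaks (29.9%, 23.4% to 37.3%) carried a Col-0 peak in its body, close to the 29.6% of all protein-coding genes that did, and 34.2% (31.9% to 36.7%) did so beside partnered flank peaks.

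The 3 peaks farthest from any Col-0 peak were all weak and lay in the pericentromere of chromosome 2. The peak chr2:6696461-6696680 (score 60) was 35480 bases away and 1237 bases from *FUT5*, a fucosyltransferase gene. The peak chr2:3307161-3307360 (score 60) was 26500 bases away, and chr2:3430961-3431180 (score 68) was 24960 bases away and overlapped AT2G07809, which RefSeq lists as a pseudogene of the mitochondrial gene ATMG00600. Chromosome 2 carries a known nuclear copy of mitochondrial DNA, and reads from the organelle can align there. The extent of that copy was not mapped here, and the part this has in the 3 peaks was not tested.

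The GC content of the unpartnered peaks was close to that of the space around them, while purines were unevenly divided between their strands. The median GC content was 33.0% (interval of the median, 32.4% to 33.8%), against 32.9% for partnered peaks and 32.8% for all bases outside coding genes. It was 37.8% for pseudogene, 33.0% for noncoding RNA, 30.7% for flank and 32.0% for intergenic peaks. Purine asymmetry, the excess of purines over pyrimidines or the reverse on a strand in percent of its bases, had a median of 18.1% (17.0% to 19.1%), against 18.3% for partnered peaks and 8.00% for 200-base tiles of the space outside coding genes. Among peaks of exactly 200 bases, 30.3% (24.4% to 37.0%) of the unpartnered and 36.7% (31.6% to 42.1%) of the partnered had an asymmetry of at least 25%, while 4.68% of the tiles did. Of the 9 highest-scoring unpartnered peaks, 6 had at least 25%, and the values ran from 14.1% to 38.1%.

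The purine words marked in the printed sequences were more frequent in peaks of every set than in the tiles. GAAGAA or its complement was present in the central 200 bases of 192 of 422 peaks (45.5%, 40.8% to 50.3%), in 51.5% (50.1% to 53%) of partnered peaks, in 49.3% of Col-0-only peaks and in 22.9% of tiles. GAGAGA or its complement was present in 24.2% (20.3% to 28.5%), 28.2%, 24.6% and 12.5%. The self-complementary ATATAT was present in 21.3% (17.7% to 25.5%), 17.2%, 20.6% and 24.3%. Runs of at least 10 A or T occurred in 11.4%, 13.3%, 16.6% and 7.09%. The GAAGAA share of the weakest peaks did not separate by partner: in the lowest 20% of the list it was 44.3% (38.3% to 50.4%) without and 44.4% (41.0% to 47.9%) with a partner. The words overlap within longer purine runs and are not independent counts.

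A G4 pattern, at least 3 G occurring 4 times with gaps of 1 to 7 bases on either strand, was present in 3 of 422 peaks (0.711%, 0.242% to 2.07%), all intergenic, against 0.310% of partnered peaks and 0.300% of tiles. At these counts no difference was detectable. By class, GAAGAA was present in 52.0% of pseudogene, 41.9% of noncoding RNA, 41.5% of flank and 46.4% of intergenic unpartnered peaks, and ATATAT in 7.84%, 22.6%, 23.2% and 29.6%. Partnered shares of GAAGAA in the same order were 57.6%, 56.0%, 51.1% and 47.3%, and the intervals overlapped in every class. For ATATAT the partnered shares in the same order were 8.53%, 19.9%, 23.1% and 16.4%, and the Col-0-only shares 7.96%, 14.3%, 26.6% and 22.1%. The intergenic ATATAT intervals stood apart, at 22.3% to 38.1% unpartnered and 14.7% to 18.3% partnered. The Col-0-only interval, 17.1% to 28.1%, overlapped both, and in the other classes all intervals overlapped. Length and score were not matched in these class shares.

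**Figure D5:**
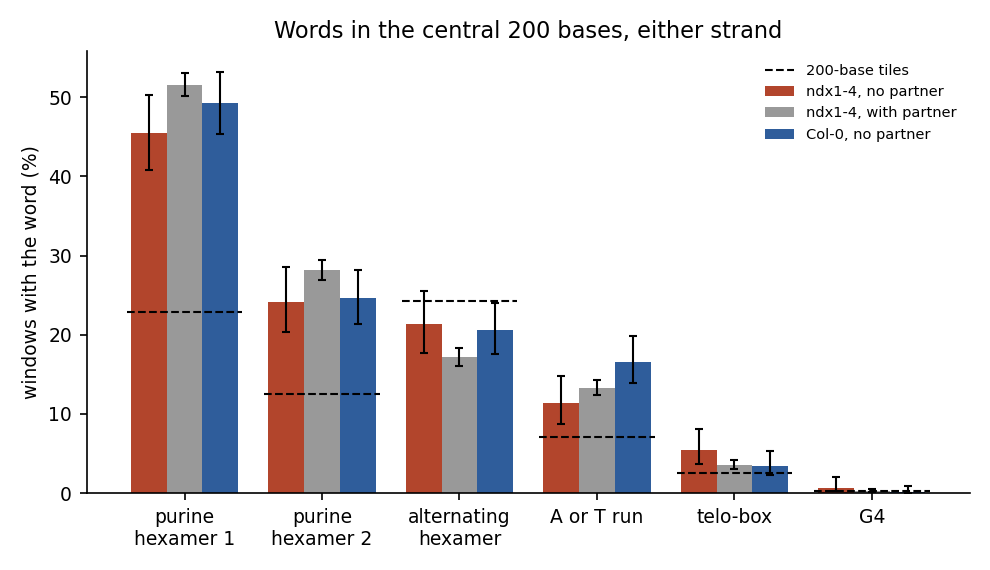
Bars give the percent of peaks outside protein-coding genes whose central 200 bases hold each word on either strand, for the same 3 sets as above with 95% Wilson intervals, and dashed lines the percent of all 200-base tiles outside coding genes. Hexamer 1 is GAAGAA, hexamer 2 GAGAGA, the alternating hexamer ATATAT and the telo-box AAACCCTA; the first hexamer was present in 45.5% of unpartnered *ndx1-4* peaks and 22.9% of tiles.

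Most unpartnered peaks held no 31-base word with another copy on the nuclear chromosomes. Copies on organelle genomes were not counted. The peak chr2:3430961-3431180, over a pseudogene of a mitochondrial gene, therefore had 0% repeated words whether or not the organelle holds a copy. In 264 of 422 (62.6%, 57.8% to 67%) no 31-base word had another copy on the nuclear chromosomes. The share was 52.8% (51.4% to 54.3%) for partnered and 60.9% for Col-0-only peaks. Within peaks of up to 300 bases the shares were 63.9% and 63.5%, and in the lowest 20% by score 63.6% and 61.8%, and the intervals overlapped in both groups. At the other end, 56 peaks (13.3%, 10.4% to 16.8%) had more than 50% repeated words, and at these the reads could have come from another copy. The mean share of repeated words was 27.2% in pseudogene, 19.5% in intergenic, 4.95% in flank and 1.97% in noncoding RNA peaks.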

How the data were processed

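The authors deposited 1 peak list per genotype that holds positions and a score, a whole number, for every peak. The submitters' processing notes name the TAIR10 build and Bowtie2, SAMtools, Picard, deepTools and MACS2, without their roles. The unit of the score, the threshold of the caller and the use of input, RNase H and the 2 IP libraries are not given in the sources used here. Read counts were not analysed here, so depth is unknown here and replicate error cannot be given. No test between genotypes was made, since peaks are not replicates, and 95% Wilson intervals (order statistics for medians) cover counting error only. In both lists starts lay on a 20-base grid and no peak was under 200 bases or under a score of 53.

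Partners shared at least 1 base. Gene bodies came from RefSeq TAIR10.1, whose nuclear coordinates matched: 0 peaks passed a chromosome end and 4 ended exactly at one. It holds 27444 protein-coding genes, 4843 pseudogenes and 5612 noncoding RNA genes on chromosomes 1 to 5. Strand of the hybrids is unknown, so overlapping and antisense genes cannot be told apart. Repeated sequence was measured as the percentage of a peak's 31-base words with another copy on either strand of the 5 chromosomes. That copy can lie within the same peak, and copies on organelle genomes were not counted. No transposable element annotation was used here. Named loci were the 5 highest-scoring, 3 longest and 3 most distant peaks, the highest-scoring of each class, those over small RNA genes, pseudogenes with several peaks and the peaks at the edges of the definition. The members and lists were chosen with earlier results of these data known. Code was checked on simulated intervals. Figures were drawn with matplotlib 3.10.9, and values computed with pandas 2.3.3, scipy 1.17.1 and numpy 2.4.6 under Python 3.11.15.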

Additional observations from a re-analysis of the deposited data

Results flagged for a closer look

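Outside the nuclear chromosomes, 5 of the 10 *ndx1-4* peaks on the mitochondrial genome shared no base with a Col-0 peak, with scores of 59 to 78. Over the nuclear peaks the share without a partner was 7.44%, and the difference was not tested. These peaks lie outside every comparison of the report. On the chloroplast genome 0 of 17 *ndx1-4* peaks lacked a partner.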

How the results depend on the processing

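No paired analysis was possible because 1 peak list stands for all libraries of a genotype and carries no replicate numbers, so leaving out a replicate was not possible either. Of 114 recomputed values for 16 results, 87 stayed within the interval of the value reported (counts within 1.5 times), 26 moved beyond it and 1, whose reported interval lay apart from 0, reversed. The sign changed for 3 further differences whose reported interval includes 0: with peaks of at least 300 bases that of pseudogenes went from 2.14 to -1.61 points and that of noncoding RNA from -0.995 to 0.201, and the remaining one is the noncoding RNA difference in the higher-scoring 50%. The comparisons with partnered peaks, 39 of the recomputed values, were chosen after seeing the data. Requiring a partner to share 10% of the peak changed nothing. Counting a Col-0 peak within 200 bases as a partner left 383 peaks, and 0% within 200 bases by construction. With peaks of at least 300 bases in both lists, 251 peaks had no partner (shorter Col-0 partners being dropped). Only 65 of the 422 peaks were that long, so most of the 251 were other peaks whose Col-0 partner was under 300 bases. The 251 had a median length of 320 bases, a median score of 79 and 3.19% within 200 bases of a Col-0 peak. In the higher-scoring 50% of the lists 43 peaks remained, with a median score of 105, 2.33% within 200 bases of a Col-0 peak, 11.6% noncoding RNA, 30.2% flank and 34.9% intergenic; the difference from partnered peaks became 3.14 points for noncoding RNA and -12.7 points for the pericentromere, and that of the flank share reversed to -0.380 points. Gene bodies extended by 250 bases gave 29.4% pseudogene, 26.1% flank, 37.1% intergenic and 44.8% pericentromere. Chromosomes 1, 3 and 5 alone held 278 peaks, 32.0% of them pericentromeric. Flanks of 500 bases gave 25.6% flank and 42.9% intergenic, flanks of 2 kb 48.8% and 19.7%, and midpoint classes 36.3% intergenic. A gene cover under 30% gave 33.2% pericentromere, and under 50% gave 42.9%. Unknown depth limits all counts of weak peaks.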
